A study of Mus musculus with 20 samples.

Results

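A set of 10 genes of the circadian clock and its first output layer was followed across the livers of 20 mice. They were Arntl (also written Bmal1), Clock, Npas2, Cry1, Nr1d1, Nr1d2, Per1, Per2, Dbp and Tef, the last pair being PAR bZIP transcription factors. Members were taken by symbol, from probe sets that the array annotation gives exactly 1 gene symbol, and all 10 of the 10 symbols were found among the 18193 genes so measured. MSXH mice (n = 10) ate a diet with 45 kcal% fat and 0.02% of MSXH, a maple syrup extract, and HFD mice (n = 10) ate the 45 kcal% fat diet alone. All 20 were male C57BL/6J mice of 8 weeks, fed for 4 weeks, kept in light from 8 to 20 o'clock, and fasted for 16 h before the liver was taken. Each mouse gave 1 array of whole liver RNA, so fewer cells of a type and less RNA per cell cannot be told apart. For the clock time of killing of each mouse, the sources used here give no value.

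The clock of liver cells is a loop of transcription. ARNTL pairs with CLOCK, or with its relative NPAS2, and binds E-boxes to activate Per, Cry, Nr1d and PAR bZIP genes, whose PER and CRY proteins then inhibit the pair. NR1D1 and NR1D2 repress Arntl, Npas2 and Clock at RORE sites, and DBP and TEF activate genes with D-boxes, so that in mouse liver Arntl and Dbp transcripts run nearly in opposite phase over a day. Cry1 is a repressor whose transcript peaks late, and it is described here with Arntl, Clock and Npas2 (4 genes, called the Arntl limb), against the other 6 (called the Dbp limb).

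Levels are the deposited values of a gene's highest probe set, taken as log2 from their range. The log base is not stated, and the spread between arrays is strongly compressed: the median SD of a probe set over the 20 arrays was 1.07e-05, and array medians ran from 6.5216 to 6.5226 with an SD of 0.000251. No difference is therefore read as a fold of RNA, and differences are given in units of the pooled SD within groups. The members varied more than most genes, since the SD of each was larger than that of 75.6% (Nr1d1) to 99.6% (Dbp) of genes. Clock, Nr1d1 and Per2 had SDs below that of the array medians, and the other 7 members had SDs above it. The hepatocyte markers averaged 13.80 to 13.82 in MSXH mice and in HFD mice, near the top of the array's range of 5.17 to 15.01. Skeletal muscle markers averaged up to 9.84 in MSXH mice (MSXH 4; median 6.39) and at most 6.42 in HFD mice. MSXH 4 and MSXH 6 were left out together in an alternative, as mice taken to carry muscle transcripts. The muscle level of MSXH 6 is not given here.

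RefSeq promoters (GRCm38.p6) were available for 9 of the 10 members, as 14 windows that end at an annotated start. The 250 bases before each start were searched on both strands for CACGTG (E-box), CACGTT (E'-box), AGGTCA (RORE core), and TTATGTAA or TTATGCAA (D-box), and no match in a member overlapped another. Of the 14 windows 7 held a match, in 6 members. The 4 below are shown because between them they hold each kind of match that was found. Capitals mark the matches, and each sequence runs 5′ to 3′ on the gene's strand.
Tef, chr15:81802423-81802672, plus strand: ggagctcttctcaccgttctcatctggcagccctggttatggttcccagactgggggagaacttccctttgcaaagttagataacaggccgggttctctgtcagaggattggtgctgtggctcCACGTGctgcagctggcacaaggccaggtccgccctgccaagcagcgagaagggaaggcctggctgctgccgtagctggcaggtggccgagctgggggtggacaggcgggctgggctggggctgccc
Cry1, chr10:85185055-85185304, minus strand: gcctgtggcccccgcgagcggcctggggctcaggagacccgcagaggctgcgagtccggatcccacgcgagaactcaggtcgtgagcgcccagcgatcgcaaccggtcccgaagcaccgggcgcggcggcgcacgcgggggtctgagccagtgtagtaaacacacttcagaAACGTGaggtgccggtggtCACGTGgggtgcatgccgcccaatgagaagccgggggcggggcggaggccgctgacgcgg
Per1, chr11:69098699-69098948, plus strand: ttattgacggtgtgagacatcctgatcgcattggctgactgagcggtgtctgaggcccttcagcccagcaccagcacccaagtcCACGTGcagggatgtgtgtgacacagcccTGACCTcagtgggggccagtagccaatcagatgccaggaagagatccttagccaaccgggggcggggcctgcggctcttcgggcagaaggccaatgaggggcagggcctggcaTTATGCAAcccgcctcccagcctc
Nr1d2, chr14:18239107-18239356, minus strand: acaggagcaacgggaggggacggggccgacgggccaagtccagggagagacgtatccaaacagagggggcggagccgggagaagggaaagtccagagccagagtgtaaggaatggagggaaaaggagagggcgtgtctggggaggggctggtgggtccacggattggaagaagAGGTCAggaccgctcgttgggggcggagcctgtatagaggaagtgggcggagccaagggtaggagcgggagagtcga
Tef held an E-box 127 bases before this start, and a second start of Tef held another at 138 bases. Cry1 held an E-box 60 bases and an E'-box 79 bases before its start. Per1 held an E-box at 166 bases, an RORE core at 137 bases and a D-box of the second form at 24 bases. Nr1d2 held an RORE core at 77 bases. Of the windows not shown, that of Nr1d1 held an E'-box at 28 bases and the third of Clock an RORE core at 119 bases. Among all 32851 windows of the same length, 6.02% held the E-box letters, 3.85% the E'-box, 14.0% the RORE core, 0.819% the first D-box form and 0.694% the second. A match is a description of the letters only, and the windows of Arntl, Npas2 and Dbp held none.

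Arntl (Entrez Gene 11865, chromosome 7) encodes the obligate activator of the loop. Its level was 7.62694 at the lowest, 7.62960 at the median and 7.63076 at the highest in MSXH mice, against 7.62675, 7.62893 and 7.63000 in HFD mice. MSXH 5, MSXH 1 and MSXH 9 lay low, apart from the other 7 MSXH mice by a gap of 40.4% of that group's range, and HFD 10 was the lowest HFD mouse. The groups overlapped, with 3 MSXH mice above every HFD mouse and 1 HFD mouse below every MSXH mouse.

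Npas2 (18143, chromosome 1), which can take the place of CLOCK, was measured at 6.08436, 6.08487 and 6.08530 in MSXH mice and at 6.08428, 6.08465 and 6.08509 in HFD mice (lowest, median and highest). It lay below the array median on all 20 arrays. The mouse with the highest Npas2 was also the one with the highest Arntl in each group, MSXH 8 and HFD 8. Cry1 (12952, chromosome 10) stood at 7.79917, 7.80003 and 7.80200 in MSXH mice, against 7.79934, 7.80064 and 7.80153 in HFD mice. Its lowest MSXH mouse was MSXH 5, as for Arntl. Clock (12753, chromosome 5) ranged narrowly, at 9.03857, 9.03861 and 9.03868 in MSXH mice and 9.03853, 9.03865 and 9.03869 in HFD mice.

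In the Dbp limb, Dbp (13170, chromosome 7) had the widest range of the members on this scale. It stood at 6.92592, 6.94090 and 7.03930 in MSXH mice, against 6.91359, 6.94637 and 7.00598 in HFD mice (lowest, median and highest). MSXH 5, MSXH 1 and MSXH 9, the mice lowest in Arntl, were the 3 highest in Dbp. HFD 10, lowest of its group in Arntl and Npas2, was highest in Dbp, Tef and Nr1d2, while HFD 8, highest in Arntl and Npas2, was lowest in Dbp and Nr1d2. Tef (21685, chromosome 15), the relative of Dbp, was at 9.74019, 9.74040 and 9.74096 in MSXH mice, against 9.74018, 9.74046 and 9.74106 in HFD mice. Nr1d2 (353187, chromosome 14), the REV-ERB beta receptor, was at 9.95634, 9.95765 and 9.96011 in MSXH mice and 9.95689, 9.95856 and 9.95983 in HFD mice. Nr1d1 (217166, chromosome 11), the REV-ERB alpha receptor, had the smallest spread of the members, at 6.92751, 6.92760 and 6.92763 in MSXH mice and 6.92751, 6.92758 and 6.92759 in HFD mice.

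Per1 (18626, chromosome 11), which is also induced acutely by hormones, was at 7.01046, 7.01399 and 7.01496 in MSXH mice, against 7.01046, 7.01474 and 7.01604 in HFD mice. Per2 (18627, chromosome 1) was at 6.79549, 6.79562 and 6.79572 in MSXH mice and at 6.79548, 6.79559 and 6.79575 in HFD mice. The high mice here were others: MSXH 7 was highest of its group in Per1 and next to lowest in Dbp, and HFD 2 was highest of its group in both Per genes.

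**Figure D1:**
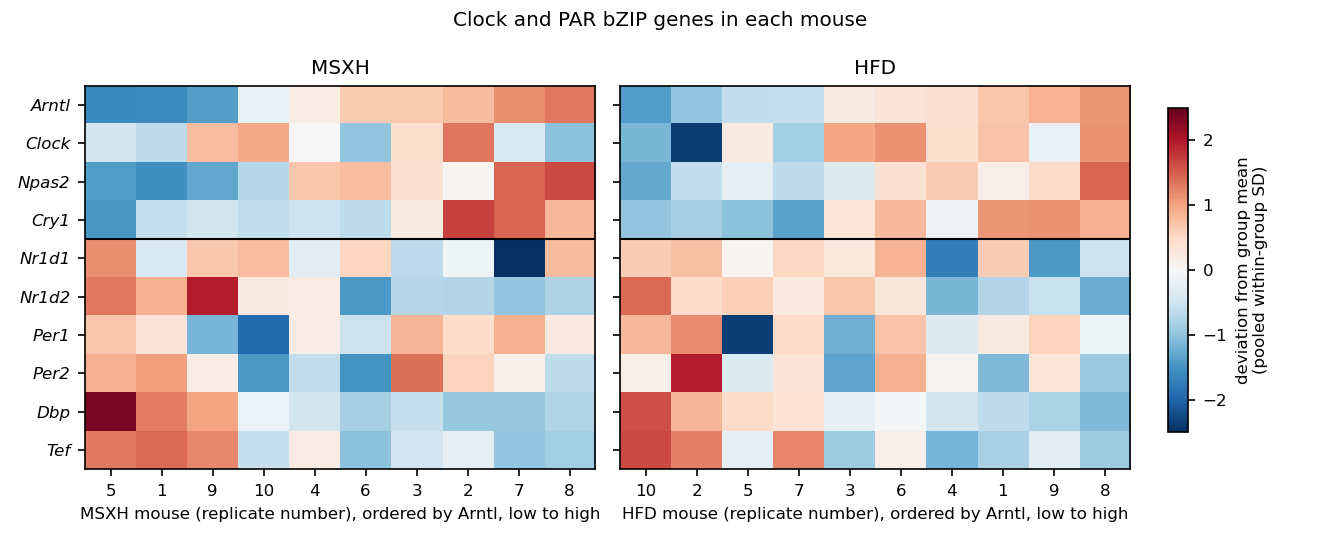
Deviation of each of the 10 members (rows) from its group mean in each mouse (columns), in units of the pooled SD within groups, for the 10 MSXH mice (left) and the 10 HFD mice (right), ordered by Arntl from low to high. The line separates the Arntl limb from the Dbp limb; Npas2 runs with Arntl, and Dbp, Tef and Nr1d2 run against it in both groups.

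No member passed the test between the diets. In the fit across all genes (limma, Benjamini-Hochberg over 18193 genes), 0 genes (0%) passed an adjusted p of 0.05, the smallest being 0.0728, and 1982 genes (10.9%) had an unadjusted p under 0.05. In MSXH mice 1197 of them were higher (6.58% of all genes) and 785 lower (4.31%). Of the 10 members 0 had an unadjusted p under 0.05. Of these 1982 genes 60.4% were higher in MSXH mice, against 2.27% of 748 after quantile normalization and 9.52% of 210 with arrays centred on their medians, each count over the genes under that p in its own setting. By sign, 5 members were higher and 5 lower in MSXH mice, with a median standardized difference of 0.0762, against 0.0669 over all genes. Their median size was 0.334, against 0.393 over all genes.

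The member with the smallest p was Nr1d1, with means of 6.92759 in MSXH mice and 6.92756 in HFD mice and a standardized difference of 0.84 (95% confidence interval -0.084 to 1.75, limma p = 0.0698, adjusted p = 0.508), higher in the MSXH mouse in 74 of 100 pairs of mice. Its sign turned with arrays centred (-0.55) and after quantile normalization (-0.57). Centring adds the array medians' spread (SD 0.000251) to Nr1d1 by construction, since its own SD within groups was only 3.2e-05. Without MSXH 7, the MSXH mouse lowest in Nr1d1, the difference was 1.39 (limma p = 0.0065, adjusted p = 0.335). Arntl stood at 0.36 (-0.53 to 1.24) and Npas2 at 0.51 (-0.38 to 1.40), while Clock stood at -0.53 (-1.41 to 0.37). Dbp was at 0.22 (-0.67 to 1.09), Tef at -0.092 (-0.97 to 0.79), Nr1d2 at -0.31 (-1.18 to 0.58) and Cry1 at -0.064 (-0.94 to 0.81). Per1 was at -0.40 (-1.28 to 0.49) and Per2 at 0.26 (-0.62 to 1.14). All intervals included 0, and each also reached to about 1 SD or beyond on the side of its estimate.

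**Figure D2:**
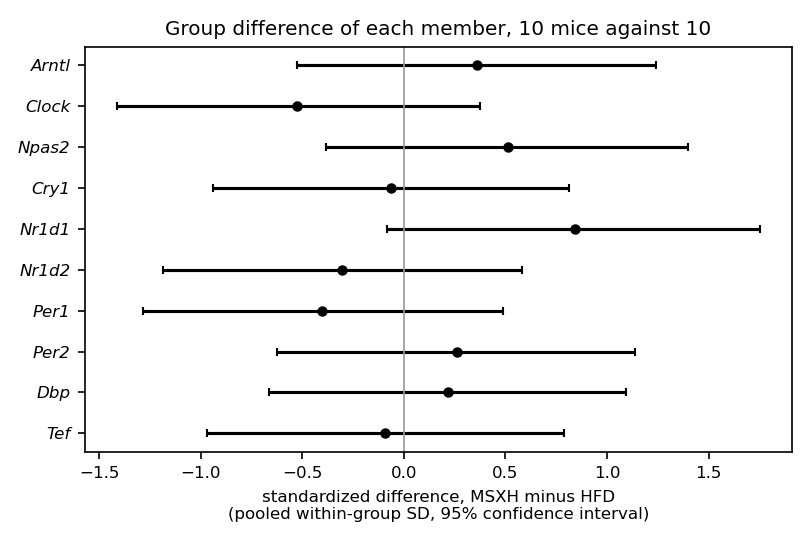
Standardized difference of each member, MSXH minus HFD, in units of the pooled SD within groups, with 95% confidence intervals (10 mice per group). The points lie between -0.53 and 0.84, and each interval crosses 0.

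Within each diet group the members varied together between mice. Arntl and Dbp ran in opposite directions: Pearson r was -0.939 over the 10 MSXH mice and -0.982 over the 10 HFD mice (permutation p = 1e-05 in each, two-sided, the smallest that 100000 permutations can give; adjusted p = 0.000169 over the 45 pairs in MSXH mice, in HFD mice and pooled). Pooled over the 20 mice with the group means removed, r was -0.954 and Spearman's rho was -0.939 (permutation p = 1e-05 for both). Without the 2 mice of each group farthest from the median of Arntl, r was -0.949 in MSXH mice, -0.974 in HFD mice and -0.956 pooled. The lowest Arntl mice stood apart, so the relation was also taken above the largest gap in Arntl, an alternative chosen after seeing the data. There r was -0.836 over 7 MSXH mice (exact permutation p = 0.0181) and -0.949 over 6 HFD mice (exact permutation p = 0.00694).

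Npas2 ran with Arntl, with r of 0.941 in MSXH mice and 0.897 in HFD mice (pooled 0.925, rho 0.879). Cry1 also ran with Arntl, with r of 0.740 in MSXH mice and 0.902 in HFD mice (pooled 0.801, rho 0.794). Against Arntl ran Nr1d2, with r of -0.912 in MSXH mice and -0.827 in HFD mice (pooled -0.881, rho -0.836), and Tef, with r of -0.930 in MSXH mice and -0.830 in HFD mice (pooled -0.872, rho -0.758). Each of these 4 relations had an adjusted p under 0.05 for r in each group and pooled, by permutation. For rho, the adjusted permutation p was 0.0620 in MSXH mice and 0.0506 in HFD mice with Tef, and 0.0506 in MSXH mice with Cry1. The other rho values of these 4 relations passed, within groups and pooled. Above the gap in Arntl the 4 relations were smaller: over the 7 MSXH mice and the 6 HFD mice r was 0.830 and 0.730 with Npas2 (exact permutation p = 0.0228 and 0.0806), 0.728 and 0.655 with Cry1 (p = 0.0639 and 0.165, exact), -0.725 and -0.685 with Nr1d2 (p = 0.0526 and 0.15, exact), and -0.501 and -0.058 with Tef (p = 0.254 and 0.882, exact). With Nr1d1 the pooled r of Arntl was -0.451 (adjusted p = 0.126) and with Per2 -0.394 (adjusted p = 0.184), and neither passed the threshold. Per1 and Arntl gave r of 0.245 in MSXH mice, -0.093 in HFD mice and 0.088 pooled (adjusted p = 0.793). That value depends on the extreme mice: without the 2 mice of each group farthest from the median of Arntl, r was 0.712 in MSXH mice (exact permutation p = 0.0446), 0.461 in HFD mice (exact permutation p = 0.239) and 0.595 pooled (permutation p = 0.0183), none adjusted.

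Among genes of the Dbp limb, Dbp rose and fell with Nr1d2 across mice (r of 0.861 in MSXH mice, 0.869 in HFD mice and 0.863 pooled) and with Tef (0.895, 0.844 and 0.858). Nr1d2 and Tef gave r of 0.908 in MSXH mice, 0.701 in HFD mice and 0.806 pooled, and the HFD value did not pass the threshold (adjusted p = 0.0807). Per1 and Per2 gave r of 0.659 in MSXH mice and 0.591 in HFD mice, neither past the threshold alone, and 0.621 pooled (adjusted p = 0.0182).

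**Figure D3:**
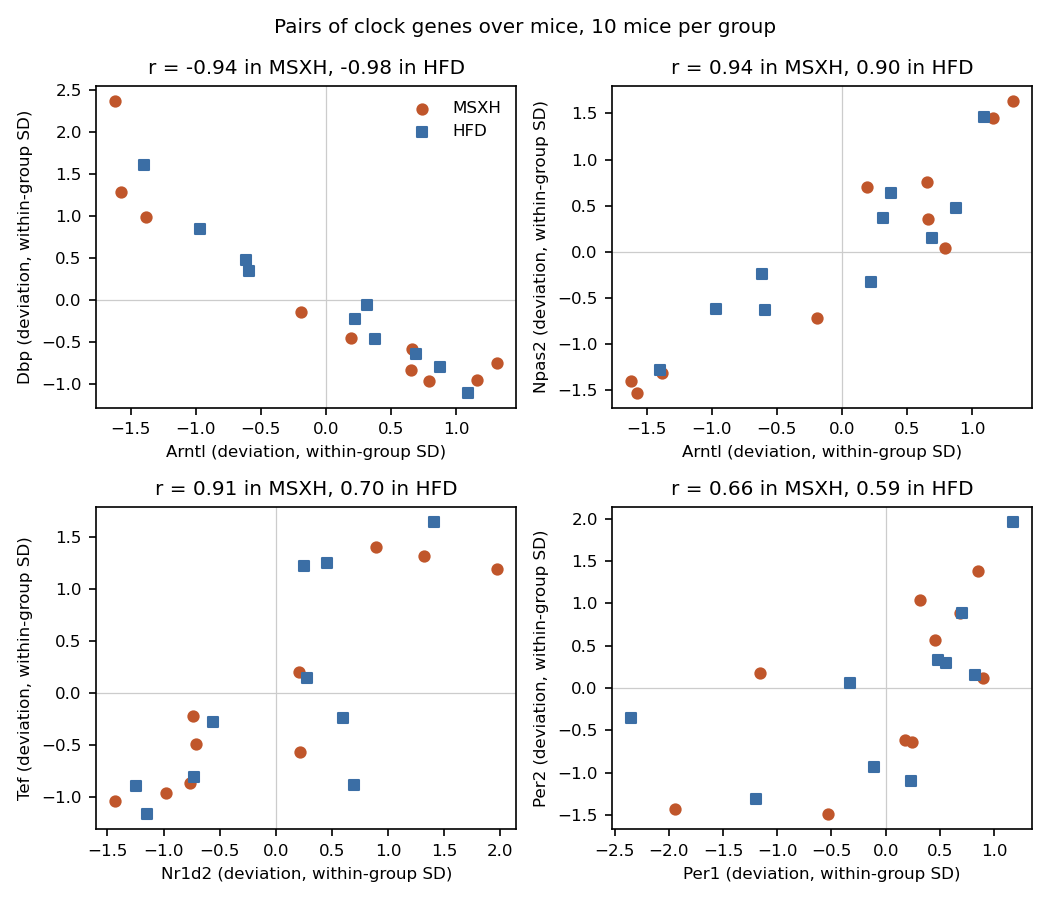
Pairs of members over mice, each axis the deviation from the group mean in units of the pooled SD within groups, with MSXH mice as orange circles and HFD mice as blue squares (10 each). Dbp falls as Arntl rises in both groups, Npas2 rises with Arntl, Tef with Nr1d2, and Per2, more loosely, with Per1.

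Of the 45 pairs of members, 11 passed an adjusted p of 0.05 in MSXH mice, 14 in HFD mice and 17 pooled (13, 22 and 22 at an unadjusted p under 0.05). An absolute r of at least 0.7 was reached by 12 of 45 pairs in MSXH mice, where 4.13% of all pairs of genes reached it, by 17 in HFD mice (3.77% of all pairs of genes) and by 12 pooled (0.608%). The median absolute r over the 45 pairs was 0.409 in MSXH mice, 0.621 in HFD mice and 0.451 pooled, against 0.27, 0.26 and 0.19 over all pairs of genes. By limb, the pairs that passed fell into 2 classes. Within a limb, 5 of 21 pairs passed in MSXH mice, 6 in HFD mice and 8 pooled, each with a positive r. Between the limbs, 6 of 24 passed in MSXH mice, 8 in HFD mice and 9 pooled, each with a negative r. Over all pairs, passed or not, r was positive in 15 of 21 pairs within a limb in MSXH mice and 20 of 21 in HFD mice, and negative in 16 of 24 pairs between limbs in MSXH mice and 23 of 24 in HFD mice, a difference between the groups that was not tested. The 9 pooled were every pairing of Arntl, Npas2 and Cry1 with Nr1d2, Dbp and Tef. After quantile normalization the pooled r turned positive for Cry1 with Tef (0.471) and for Cry1 with Nr1d2 (0.098). The rest of the 9 stayed negative, from -0.743 (Arntl with Dbp) to -0.076 (Arntl with Tef). With arrays centred on their medians all 9 were negative, from -0.917 (Arntl with Dbp) to -0.132 (Cry1 with Tef). Without the 2 mice of each group farthest from the median, 13 of the 17 pooled relations kept an unadjusted p under 0.05. The other 4, over the fewer mice, did not: Npas2 with Cry1 had r of 0.515 (0.653 over all mice; p = 0.0504), Cry1 with Nr1d2 -0.454 (-0.605), Cry1 with Tef -0.426 (-0.616) and Per2 with Tef 0.421 (0.598), by permutation. Per1 with Arntl (above), with Npas2 (0.517, p = 0.0474), with Cry1 (0.575, p = 0.0258) and with Dbp (-0.533, p = 0.0397) had an unadjusted p under 0.05 over the remaining mice and not over all, where r was 0.127 with Npas2, 0.238 with Cry1 and 0.047 with Dbp, by permutation. Without HFD 10 alone, 7 pairs rather than 14 passed in HFD mice.

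**Figure D4:**
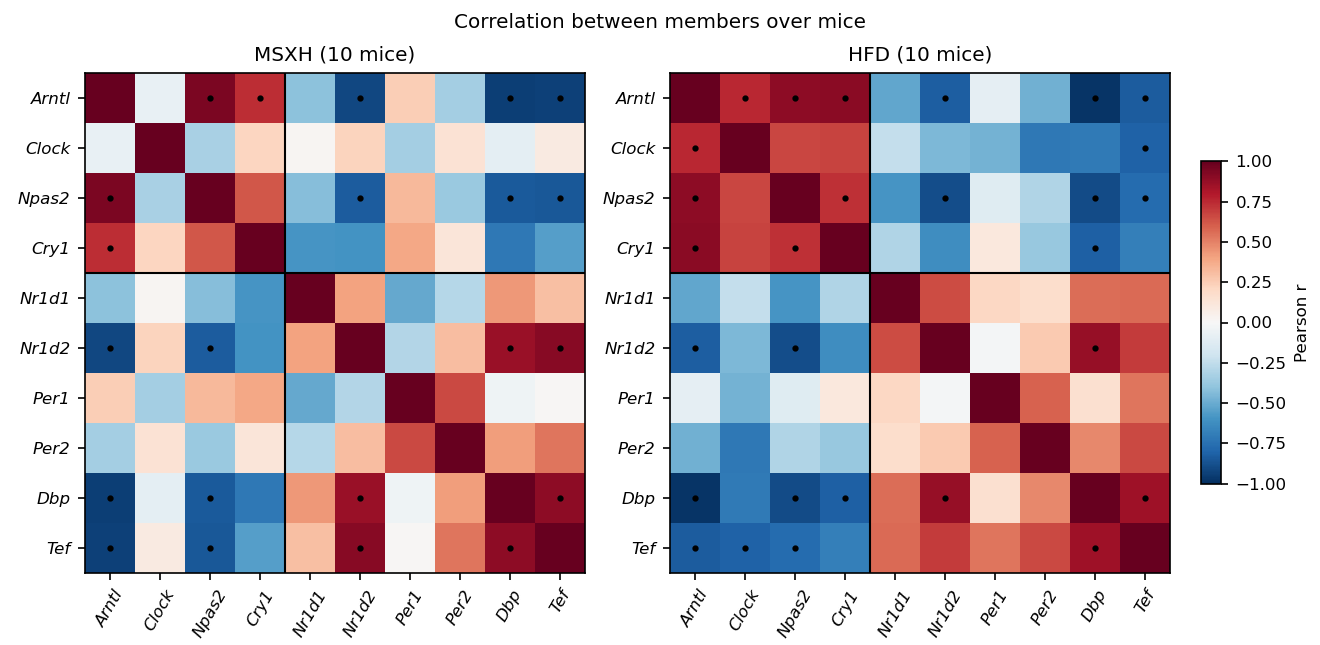
Pearson r between members over the 10 MSXH mice (left) and the 10 HFD mice (right), with dots on pairs of adjusted p under 0.05 (permutation, Benjamini-Hochberg over both groups and the pooled values) and lines between the limbs. Within limbs r is positive in 15 of 21 pairs in MSXH mice and 20 of 21 in HFD mice, and between limbs it is negative in 16 of 24 and 23 of 24.

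In both groups 10 pairs passed, 1 passed in MSXH mice alone (Nr1d2 with Tef) and 4 passed in HFD mice alone. The 4 were Arntl with Clock, Npas2 with Cry1, Cry1 with Dbp and Clock with Tef. A pair that passed in 1 group is not shown to differ: in a permutation test of the difference of Fisher's z, 0 of 45 pairs passed an adjusted p of 0.05 (smallest 0.777), and 2 had an unadjusted p under 0.05. Both involve Clock. Clock with Npas2 gave r of -0.325 in MSXH mice and 0.671 in HFD mice (p = 0.0310), and Clock with Tef gave 0.092 in MSXH mice and -0.812 in HFD mice (p = 0.0373). Arntl with Clock gave -0.074 in MSXH mice and 0.754 in HFD mice (p = 0.0548).

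The relation of Clock to Arntl varied among its probe sets. Clock has 4 probe sets, and the 3 others had pooled r with Arntl of 0.790, 0.641 and 0.487, against 0.328 for the one used. Dbp's second probe set followed the first at r of 0.983 and had r of -0.929 with Arntl. For Npas2, Nr1d2 and Tef the other probe sets kept the sign of the relation to Arntl, at 0.634, -0.673, and -0.560 and -0.323. For Per2 they had r of -0.129 and 0.048 with Arntl, against -0.394 for the one used. With Dbp the other Per2 probe sets had r of 0.169 and 0.002, against 0.440. The second Arntl probe set did not follow the first (r of 0.209) and had r of -0.243 with Dbp. Over all genes the median r between a gene's highest probe set and its others was 0.242.

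The first principal component of the 10 members (group means removed) held 56.6% of their variance and the second 20.0%. On the first, Arntl (0.41), Npas2 (0.38) and Cry1 (0.33) had loadings opposite to Dbp (-0.41), Tef (-0.39) and Nr1d2 (-0.37). On the second, Per1 (0.65) and Per2 (0.52) had the largest loadings.

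To set the members beside the transcriptome, the level of Arntl was put in the limma model with the diet group and fitted to all 18192 other genes. At an adjusted p of 0.05, 88 genes (0.484%) varied with Arntl, 63 in its direction (0.346%) and 25 against it (0.137%), and 5 of the 9 other members were among them. Dbp had the smallest p of all 18192 genes and Npas2 the next (adjusted p = 1.91e-06 and 6.33e-05). Nr1d2 ranked 6, Tef 7 and Cry1 25 (adjusted p = 0.00113, 0.00171 and 0.0185). Clock, Nr1d1, Per1 and Per2 did not pass. The median absolute r with Arntl was 0.801 over the 9 members and 0.226 over all genes. The count of genes, though not that of members, was unsteady: leaving out 1 mouse at a time gave 26 to 332 genes, and 4 or 5 members. It fell by more than 1.5 times without MSXH 5 (26 genes), MSXH 8 (27), MSXH 7 (29), MSXH 9 (29), MSXH 1 (47), HFD 8 (37), HFD 2 (41), HFD 9 (54) or HFD 5 (57). It was as much higher without HFD 10 (332), MSXH 2 (200), HFD 3 (159) or HFD 1 (148). After quantile normalization 4 genes and 1 member (Npas2) passed, and with arrays centred 12 genes and 4 members (without Tef). The pooled r of Arntl with Dbp was then -0.743 and -0.917, and that with Tef -0.076 and -0.595.

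With Dbp as the covariate, 12 genes (0.066%) passed, 4 of them members: Arntl, Npas2, Nr1d2 and Tef (0 members after quantile normalization, 2 with arrays centred). Fits on the other members gave 471 genes with Npas2 (2.59%), 95 with Nr1d2 (0.522%) and 8 with Tef (0.044%), holding 4, 4 and 3 members. With Clock 169 genes passed (0.929%) and with Cry1 1 (0.0055%), none of them a member. With Nr1d1 and with Per2, limma called 0 genes (0%), where 2134 and 1424 genes had an unadjusted p under 0.05.

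**Figure D5:**
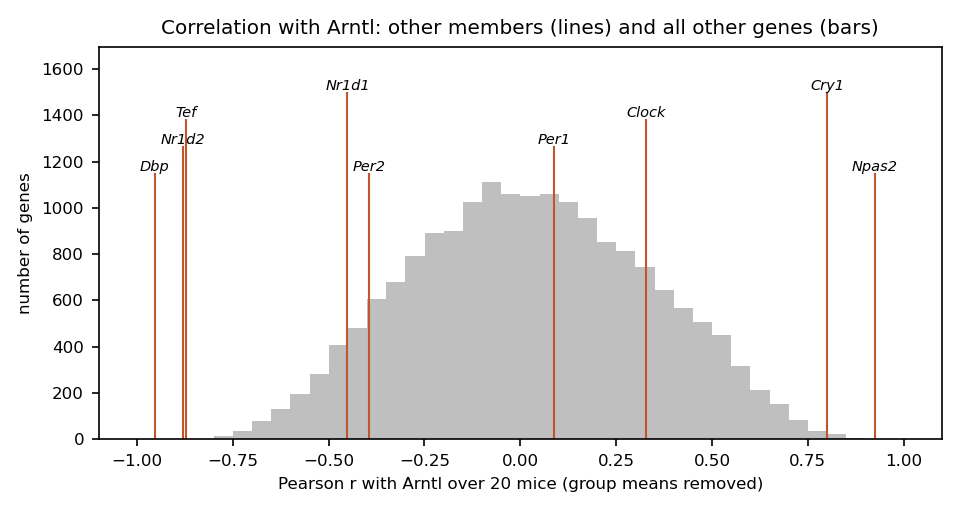
Pearson r of each gene with Arntl over the 20 mice, group means removed: bars count all other genes in steps of 0.05 and orange lines mark the 9 other members (line heights only separate the names). Dbp, Nr1d2, Tef, Cry1 and Npas2 lie in the tails of the distribution, while Nr1d1, Per2, Per1 and Clock lie within it.

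Other clock genes followed in part. Of 12 further core clock genes measured, 1 varied with Arntl, Per3, a repressor paralog of Per1, with a pooled r of -0.755 (adjusted p = 0.0391), as against 0.484% of all genes. Nfil3, which represses at the D-boxes that DBP and TEF activate, had r of 0.694 with Arntl (adjusted p = 0.0718) and -0.726 with Dbp (adjusted p = 0.139). Neither passed, and without the 2 mice of each group farthest from the median the value with Arntl was 0.216. Of 17 clock-controlled output genes of liver, 3 varied with Arntl. They were Wee1, a cell cycle kinase and E-box target (r of -0.833, adjusted p = 0.00948), Alas1, the rate-limiting enzyme of heme synthesis (-0.745, adjusted p = 0.0447), and Lonrf3, which ran with Arntl (0.835, adjusted p = 0.00927). Lonrf3 alone of these 17 also varied with Dbp (-0.868, adjusted p = 0.00402).

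Their levels show how small these movements are on the deposited scale. Alas1 was at 10.1536, 10.2011 and 10.2355 in MSXH mice, against 10.2037, 10.2174 and 10.2379 in HFD mice (lowest, median and highest), with an overlap and a standardized difference of -1.09 (limma p = 0.0224, adjusted p = 0.372). Lonrf3 was at 7.6097, 7.6120 and 7.6134 in MSXH mice and 7.6098, 7.6115 and 7.6124 in HFD mice. Wee1 spanned 7.0268 to 7.0271 in MSXH mice and 7.0268 to 7.0270 in HFD mice. With arrays centred on their medians, the r of Lonrf3 (0.832) and Alas1 (-0.740) with Arntl stayed close to these values, whereas that of Wee1 was -0.189 and that of Per3 -0.011. Genes of so narrow a range as Wee1 and Per3 (6.5374 to 6.5375 in each group) take on the array medians' spread (SD 0.000251) when centred. Their centred r therefore cannot tell whether their relation to Arntl holds. After quantile normalization r with Arntl was 0.761 for Lonrf3 and -0.641 for Alas1. For Wee1 (0.239) and Per3 (0.387) it turned positive.

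Genes that respond to glucocorticoids or temperature (8 measured) and to fasting (10 measured) held 0 genes that varied with Arntl past the threshold, by limma. Those of smallest p, with Arntl or between the diets, were Sgk1 (r of 0.411, adjusted p = 0.381) and Fkbp5 (0.376, adjusted p = 0.437), both glucocorticoid targets, Cyp4a14, a PPAR alpha target (0.547, adjusted p = 0.198), and Srebf1, the SREBP1 gene (-0.309, adjusted p = 0.559), named for its p between the diets (0.0411 unadjusted, 0.437 adjusted). In the MSXH against HFD contrast 0 genes of these 4 lists passed an adjusted p of 0.05 by limma.

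Outside the clock, the genes most like Arntl over the 20 mice were Tab2 (pooled r of 0.897), Dpp9 (0.895), Rnf144a (0.883), Slc30a10 (0.859), a manganese transporter, and Tubb2a (0.849), a beta tubulin. Tubb2a, Dpp9, Tab2 and Slc30a10, with Lonrf3, were also the 5 genes that ran most against Dbp (r of -0.876, -0.872, -0.851, -0.843 and -0.868, in the order named). With arrays centred their r with Dbp was -0.869, -0.122, 0.015, -0.794 and -0.804, in that order. After quantile normalization it was -0.845, -0.285, 0.068, -0.724 and -0.290. Tubb2a and Slc30a10 kept r of 0.862 and 0.857 with Arntl when arrays were centred, while Tab2 and Dpp9 had 0.278 and 0.397. Running most against Arntl beside Wee1 were Acot13 (-0.781), Glod4 (-0.777), Ccs (-0.773) and Acaa1a (-0.769), the last a peroxisomal thiolase. Of these, Acot13, Glod4 and Acaa1a had centred values of -0.258, 0.033 and -0.018. Tab2, Dpp9, Acot13, Glod4 and Acaa1a range narrowly too (Glod4 read 9.7370 in every mouse after rounding), so the same limit of centring holds for them. After quantile normalization r with Arntl turned positive for Acot13 (0.277), Glod4 (0.213), Ccs (0.050) and Acaa1a (0.203), as it did for Wee1. It stayed positive for Tubb2a (0.813), Slc30a10 (0.824), Dpp9 (0.667), Rnf144a (0.505) and Tab2 (0.448). The genes most like Dbp were Ngef (0.769), Suclg1 (0.768), Per3 (0.765), Acot13 (0.763) and Yipf1 (0.757), none of which passed the threshold (adjusted p from 0.0980 to 0.110).

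Markers of other liver cell types were set beside Arntl in the same fit. Of the 8 marker lists only Sox9, from the cholangiocyte list (4 measured), varied with Arntl (pooled r of 0.754, adjusted p = 0.0392), with r of 0.949 in MSXH mice and 0.364 in HFD mice. The other 3 cholangiocyte markers had r from -0.461 to 0.141, and the list's mean level was 6.4716 to 6.4717 in MSXH mice and in HFD mice. Lyve1, of the endothelial list, had r of 0.720 (adjusted p = 0.0582), while the other 4 endothelial markers stood at -0.550 (Kdr), -0.442 (Tek), -0.109 (Stab2) and 0.098 (Pecam1). The part of these cells in the members' values was not tested. The 5 muscle markers had r with Arntl from -0.065 to 0.120, and without MSXH 4 and MSXH 6 the pooled r of Arntl and Dbp was -0.955. Array medians had r from -0.397 (Per2) to 0.218 (Npas2) with the members.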

How the data were processed

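Total liver RNA of 20 mice (10 MSXH, 10 HFD) was biotin-labelled and hybridised to Affymetrix 3' arrays, 1 per mouse, per the labels' protocols. The deposited values of 45101 probe sets are taken as log2 levels from their range. How the arrays were normalized and summarized is not stated here by any label or header, and the values were used as deposited. The number of arrays limits the precision.

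Of 34945 probe sets with 1 symbol, the highest per gene was used (18193 genes). limma 3.58.1 (R 4.3.3; lmFit, eBayes with trend) tested MSXH against HFD and, with diet as a term, each member's level as a covariate. Correlations of members were tested over mice by 100000 two-sided permutations (exact below 10 mice), Benjamini-Hochberg over the 45 pairs in each group and pooled, with Python 3.11.15. Both scripts were tested on simulated data. Deviations of mice that share a replicate number correlated from -0.265 to 0.165, so numbers were not treated as pairs.

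Members and gene lists were chosen with earlier results of these data known. Named beside members are, of each pathway list, genes past adjusted p 0.05 with diet or Arntl (at most 6) or else the 2 of smallest p, and the 5 genes of highest and 5 of lowest r with Arntl and with Dbp. Nfil3, Lyve1, Sox9, Per1's companions and Per1 as a covariate were picked with their values already known. Alternatives were quantile normalization, centring, other probe sets, genes above the median, no variance trend, rank tests, a replicate block, and leaving out arrays.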

Additional observations from a re-analysis of the deposited data

Results flagged for a closer look

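One value was picked out because a single mouse lay far from the rest of its group. Nr1d1 in MSXH 7 was the lowest of the 10 MSXH mice, and its distance to the next mouse was 0.501 of the whole range of the group, above Dixon's 95% value of 0.466 for 10 samples. Its level was 6.92751, against a median of 6.92760 in MSXH mice and 6.92758 in HFD mice. With 20 groups of values examined (10 members in each diet group), chance alone picks out about 1 in 20. The same mouse ranked 2 of 10 in Arntl, Npas2 and Cry1 and 9 of 10 in Dbp, Tef and Nr1d2, counted from the highest in MSXH mice. Without MSXH 7 the standardized difference of Nr1d1, MSXH minus HFD, was 1.39 (limma p = 0.0065, adjusted p = 0.335), the largest over the 20 arrays left out in turn.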

How the results depend on the processing

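The opposition of Arntl and Dbp kept its sign under every alternative run, and its r over arrays left out in turn ran from -0.968 to -0.931 in MSXH mice, -0.988 to -0.977 in HFD mice and -0.969 to -0.948 pooled. Only quantile normalization took its unadjusted permutation p above 0.05 in 1 group, with r of -0.63 in MSXH mice (permutation p = 0.0528). Quantile normalization also left 4 genes and 1 other member that varied with Arntl, 1 gene and 0 members with Dbp, 16 genes with Per1, and 7 pairs in HFD mice. With arrays centred these were 12 genes with Arntl, 4 genes and 2 members with Dbp and 109 genes with Per1, and 1 pair differed between the groups (Clock with Per2, r of 0.979 in MSXH mice and -0.310 in HFD mice, adjusted p = 0.0427). By construction, centring adds the array medians' spread (SD 0.000251) to genes whose own SD is smaller, such as Clock, Nr1d1 and Per2. Among genes above the median gene, 192 varied with Arntl and 436 with Per1. Of the 10 members 8 lie above it. Spearman's rho gave 7 pairs in MSXH mice. Averaging the probe sets of each gene gave 1 gene between diets.

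Leaving out 1 array gave 0 to 3 genes and 0 to 1 members (Nr1d1, without MSXH 7) between diets, 26 to 332 genes with Arntl, 119 to 444 with Per1, and 7 (without HFD 10) to 15 pairs in HFD mice. For the replicate block, limma with the number as a term left 0 genes and 0 members with Arntl, 0 and 0 with Dbp and 11 genes with Per1, but the samples share only a number. The cause of these shifts was not tested.

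Among members' differences, none of which passed an adjusted p of 0.05 in any setting, the sign turned for Nr1d1 (-0.567 quantile, -0.553 centred), Per2 (-0.443 and -0.492), Npas2 (-0.0268 centred), Clock (0.332, mean of probe sets), Cry1 (0.0766 without MSXH 4 and 6, 0.2 as a difference of mean ranks, -0.273 to 0.101 over arrays left out), Tef (0.0114 without MSXH 4 and 6, -0.258 to 0.0962) and Dbp (-0.0568 to 0.419). The number of mice limits what could be seen.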

Other observations

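A further group of genes varied with Per1. Per1 was made a covariate after its low r with Arntl was seen, so what follows describes these mice and is not an independent test. In the limma fit 270 genes (1.48%) varied with Per1 at an adjusted p of 0.05, 190 in its direction and 80 against it, and none was a member. Of the 270, 0 were among the 88 that varied with Arntl (0% of each list), where the share of all genes that varied with Per1 was 1.48%, so that few would be shared in any case. By clock-output, hormone and fasting lists, 3 of 17, 2 of 8 and 2 of 10 genes varied with Per1, all in its direction. The output genes were Noct, the nocturnin gene (pooled r of 0.908), Upp2, a liver uridine phosphorylase (0.829), and Usp2, a deubiquitinase (0.792). The hormone genes were Tsc22d3 (0.879) and Fkbp5 (0.805), both induced by glucocorticoids. The fasting genes were Pck1, the gluconeogenic enzyme PEPCK (0.852), and the coactivator Ppargc1a (0.811). Tat, a glucocorticoid-induced aminotransferase of hepatocytes, gave 0.882. All these had an adjusted p under 0.05 by limma, the highest 0.0106. The other genes of the output, hormone and fasting lists did not pass, Sgk1 among them (0.570, limma adjusted p = 0.155). Some of them ran against Per1, such as Fgf21 (-0.518), Pdk4 (-0.436) and Hsp90aa1 (-0.423). Of the 12 further core clock genes 0 varied with Per1.

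Noct was at 7.0435, 7.1643 and 7.2235 in MSXH mice, against 7.0807, 7.1995 and 7.2694 in HFD mice (lowest, median and highest). MSXH 10, lowest of its group in Per1, was also lowest in Noct, Tat, Tsc22d3, Ppargc1a and Pck1. HFD 2, highest of its group in Per1, was highest in Noct, Fkbp5, Upp2 and Usp2. Part of this rests on such mice: without the 2 mice of each group farthest from the median of Per1, r stayed at 0.907 for Noct and 0.705 for Ppargc1a, but was 0.323 for Fkbp5 and 0.534 for Tsc22d3. Most like Per1 over all genes were Cyth1 (0.912), Noct, Pptc7 (0.904), Cebpb (0.898) and Lpin1 (0.895). Running most against it were Lrat (-0.875), Mlxipl, the gene of the glucose sensor ChREBP (-0.843), Hook3 (-0.842), Slc66a2 (-0.833) and Slc25a42 (-0.824). Lrat is on the stellate cell list, of which the other 4 genes did not pass, and the part of those cells was not tested. With arrays centred, Hook3 stood at 0.193 and Slc25a42 at -0.352. Hook3 read 9.0451 in every mouse after rounding and takes on the array medians' spread when centred, so its centred r cannot tell whether the relation holds. After quantile normalization r with Per1 was 0.103 for Hook3 and -0.276 for Slc25a42. It was -0.489 for Lrat, -0.323 for Mlxipl and -0.633 for Slc66a2. When 1 mouse was left out, the count of 270 fell by more than 1.5 times without MSXH 10 (119), MSXH 9 (123), HFD 3 (128) or HFD 9 (179), and was 444 without MSXH 5.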
